A study of Homo sapiens with 6 samples.

Results

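The interferon-stimulated genes and the genes of class I antigen presentation were examined in A673 Ewing sarcoma cells made to express the propeptide of lysyl oxidase (LOX-PP). The group held 37 listed genes, among them ISG15, the IFIT, OAS and IFITM families, IRF and STAT factors, and HLA class I heavy chains with the machinery that supplies their peptides. Each gene was represented by 1 probe, the one with the highest mean signal over the arrays among the probes whose transcript accession belongs to that gene. A probe was found for 36 of the 37 genes, out of 20503 genes named on the array. No probe was matched to IFI27. The XAF1 probes were too dim to be tested, so 35 genes entered the comparison, and 32 of these 35 were well above background on each of the 6 arrays.

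Total RNA was profiled by 1-colour hybridisation to 6 Agilent arrays, of which 3 carried RNA of A673/TR/empty cells (control) and 3 RNA of A673/TR/LOX-PP cells. A673 is a human Ewing sarcoma line, TR is the tetracycline repressor through which doxycycline induces the inserted cDNA, and the control cells carry the vector without insert. Both lines were made by drug selection of stable clones, and clones with high expression were taken for LOX-PP. Which clone was arrayed is not given in the sources used here, so that clone and LOX-PP expression cannot be told apart. The A673/TR/LOX-PP cells received doxycycline for 72 h. The labels repeat this treatment at 1 µM for all 6 samples, although the study's methods name it clearly for the LOX-PP cells alone, and the treatment of the control cultures is therefore not settled. No sample was treated with an interferon. The labels number 3 replicates of each line, and the study's methods describe 3 separate experiments.

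Each array had 58717 gene spots, none of them saturated, and 56.9% to 74.8% of these stood well above background. Negative control spots had net signals of 64.4 to 575, depending on the array. Of the scanner software's 10 quality measures, 5 were out of range on each control array. On LOX-PP replicates 1 to 3 the numbers were 1, 6 and 5. The 75th percentile of log2 signal was 12.90, 12.62 and 12.60 in control replicates 1 to 3. In LOX-PP replicates 1 to 3 it was 11.48, 12.61 and 11.70, so that LOX-PP replicates 1 and 3 were the dimmest arrays. LOX-PP replicate 1 was on a slide of its own with its own scan date, and the other 5 arrays shared a slide and a scan date. Slide and scan therefore cannot be told apart. The LOX probe was read beside the labels. Its signal, on a log2 scale relative to the 75th percentile of the array, was -0.09, 0.36 and 0.10 in control replicates 1 to 3 and -0.12, -0.69 and -1.29 in LOX-PP replicates 1 to 3. The probe was therefore not higher in the arrays labelled LOX-PP (limma, Benjamini-Hochberg adjusted p = 0.218). Its position relative to the propeptide cDNA is not known here, so the probe cannot check the labels. The paper reports induction of the insert by doxycycline in clones of this line, seen by RT-PCR with LOX and tag primers. Directions below rest on the labels. The 8 Ewing sarcoma markers examined (CD99, NKX2-2, NR0B1, STEAP1, LIPI, PAX7, CCK and PRKCB) were well above background on every array. PAX7 and CCK were called lower on the LOX-PP arrays with limma, that is 2 of 8 (25%), where 7.05% of all tested genes were called in either direction. Log2 changes of the 8 ranged from -2.67 to 0.86, and 2 of them were higher on the LOX-PP arrays without overlap. Of 7 tested leukocyte markers, ITGAM was higher by 1.19 (adjusted p = 0.0314, limma). The summed signal of the 8 leukocyte markers with a probe, in multiples of the 75th percentile, ran from 0.974 to 1.41 on control and from 1.16 to 2.01 on LOX-PP arrays. Of 4 tested endothelial markers none was called with limma, where 2 had an unadjusted p under 0.05. The summed signal of the 5 with a probe was low and did not overlap, at 0.299 to 0.355 on control and 0.379 to 0.676 on LOX-PP arrays. Of these 5, only 2 were well above background on every array, so the sum includes signal near background. PECAM1 changed by 1.23 (limma, adjusted p = 0.0957). The leukocyte markers PTPRC and CD3E were dim but above background on every array, and their part in any result was not tested.

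Interferons are secreted proteins that signal through cell surface receptors, Janus kinases and STAT proteins. Type I and type III interferons lead to a complex that includes STAT2 and IRF9 and binds the interferon-stimulated response element in the promoters of its targets. Type II interferon induces IRF1, which activates further genes. The induced genes sense viral RNA, degrade or trap it, block viral entry and budding, and raise the display of peptides on class I molecules. Tumour cells often keep part of this programme active without infection, and class I display decides whether T cells can see them.

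The response element is a sequence that many of the genes share and that played no part in choosing them. It was searched as GAAA, 2 bases of any kind and GAAA again (on the other strand TTTC, 2 bases and TTTC), in RefSeq windows of 300 bases around each transcript start (GRCh38.p14). Overlapping matches were allowed. A match was present for 20 of the 29 genes of the group that have an entry (69.0%), compared with 4.38% of all 27305 genes in the table. By class, 5 of the 8 class I presentation genes with an entry and 15 of the 21 others held it. HLA-E, USP18, IRF7, OASL, IFITM2, IFIT2, OAS2 and MX2 have no entry. The stretches below come from genes on which the results turn: a gene that was higher on the LOX-PP arrays (IFIH1), a lower one (IFIT5), reference interferon targets that passed no threshold (ISG15 and IFIT1), and class I presentation genes (B2M, TAP1 and TAP2). They run 5′ to 3′ on the strand of the gene, and capitals mark the matches.
IFIH1, chr2:162318820-162318851, minus strand: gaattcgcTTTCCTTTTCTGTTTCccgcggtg
IFIT5, chr10:89414515-89414566, plus strand: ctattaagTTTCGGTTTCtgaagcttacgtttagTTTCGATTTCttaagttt
ISG15, chr1:1013376-1013407, plus strand: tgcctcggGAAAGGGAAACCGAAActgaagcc
IFIT1, chr10:89392499-89392537, plus strand: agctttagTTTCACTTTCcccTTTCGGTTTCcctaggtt
B2M, chr15:44711365-44711396, plus strand: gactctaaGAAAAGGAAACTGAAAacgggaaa
TAP1, chr6:32853815-32853846, minus strand: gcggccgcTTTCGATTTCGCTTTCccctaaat
TAP2, chr6:32838780-32838805, minus strand: ggggaagcGAAAGCGAAAgctgcccg

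IFIH1, IFIT5, ISG15, IFIT1, B2M and TAP1 each show a pair of matches in these stretches, which overlap in IFIH1, ISG15, B2M and TAP1, while TAP2 shows 1. A match was therefore present in genes that were higher, lower and not past the threshold. It was found in both genes with a called change that have an entry, IFIH1 and IFIT5, and in 17 of the 25 with an entry that were tested and not called. A match describes letters in the window and says nothing of binding.

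The main question was whether these genes differed between the LOX-PP and control arrays. Most did not pass the test, and those that did went in both directions. IFIH1 rose, whereas IRF7 and IFIT5 fell. Changes are given as log2 differences, LOX-PP minus control, relative to the median of all 32647 tested probes, which itself lay at 0.13. The adjusted p belongs to the difference before that median is subtracted. Of the 35 genes, 3 passed an adjusted p under 0.05 (8.57%), compared with 7.05% of all 16593 tested genes. In the upward direction 1 of 35 was called, where 3.69% of all genes were, and in the downward direction 2 of 35, where 3.35% were. The control and LOX-PP values did not overlap in 7 genes that were higher and 4 that were lower, compared with 15.5% and 18.1% of all genes. At an unadjusted p under 0.05, 9 of the 35 passed, against 23.6% of all genes. The median change of the 35 was 0.05 and their middle 50% ran from -0.28 to 0.28. For all tested genes the median was -0.09 and the middle 50% ran from -0.46 to 0.30. A change of at least 1 in either direction was measured in 5 of the 35 genes (14.3%) and in 14.1% of all genes. The shares called, not overlapping and changed by at least 1 were thus near the shares over all genes. Gene level in these cultures is a mean over cells, and fewer cells with a transcript cannot be told apart from less transcript per cell.

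**Figure D1:**
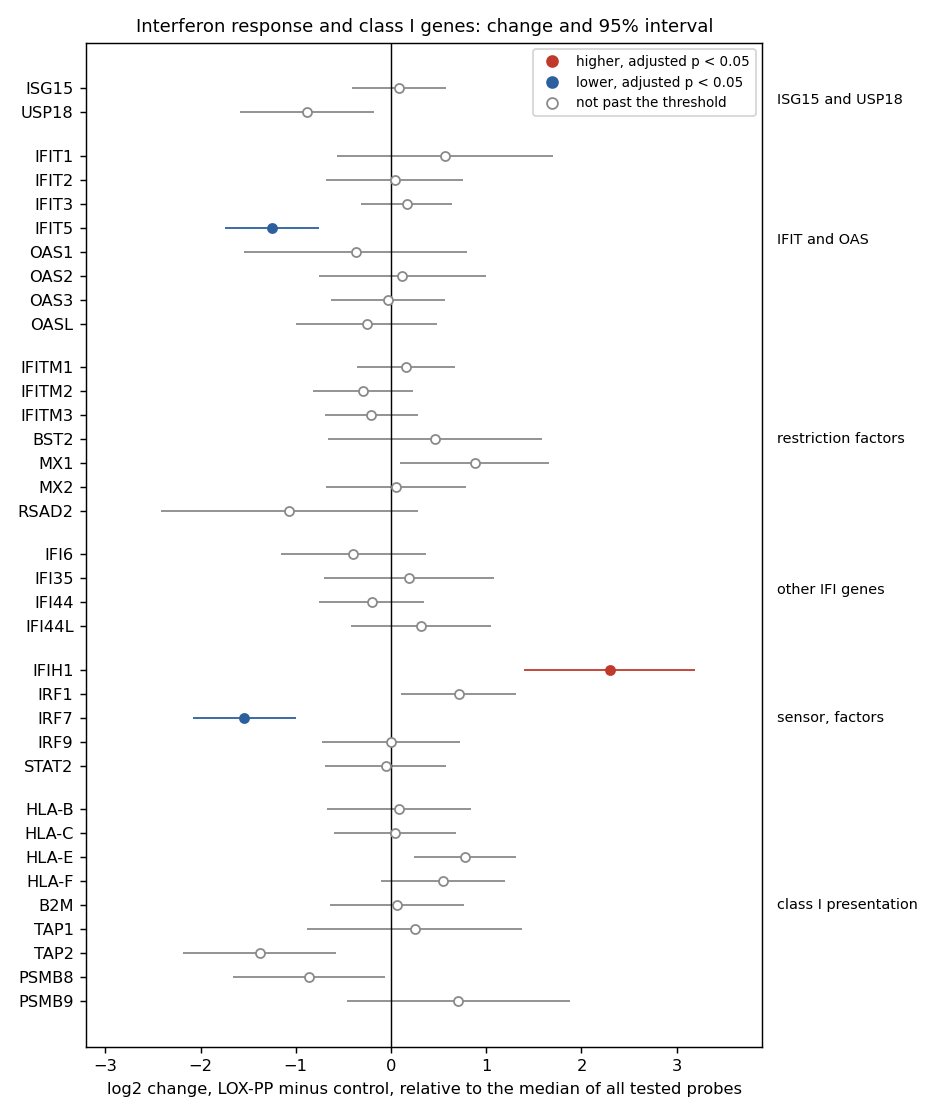
Log2 change (x axis) of the 35 tested genes, grouped by role, with 95% confidence intervals from limma, and filled points for an adjusted p under 0.05. IFIH1 at 2.30 stands alone on the right, IRF7 at -1.54 and IFIT5 at -1.25 are the called genes on the left, and the other intervals mostly cross 0.

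IFIH1 encodes MDA5, the cytosolic helicase that senses long double-stranded RNA. It read -2.21, -2.13 and -1.13 in the control replicates and 0.14, 0.65 and 1.01 in the LOX-PP replicates, on the same log2 scale relative to the 75th percentile. The lowest LOX-PP value lay above the highest control value. IFIH1 was higher by 2.30 ± 0.38 (SE, n = 3 per group), or 4.91-fold, with an adjusted p of 0.0169 (limma). IRF7 encodes the transcription factor that drives interferon alpha genes and amplifies the type I response. It read 2.59, 2.52 and 2.94 in the control replicates and 1.05, 1.32 and 1.45 in the LOX-PP replicates, with no overlap. IRF7 fell by 1.54 ± 0.23 (SE, n = 3 per group; adjusted p = 0.0192, limma).

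IFIT5, an RNA-binding protein of the IFIT family, read 2.18, 2.34 and 2.33 in the control replicates and 1.20, 0.97 and 1.31 in the LOX-PP replicates. Values within each group lay close together, and the groups did not overlap. IFIT5 fell by 1.25 ± 0.21 (SE, n = 3 per group; adjusted p = 0.0290, limma). Within the slide that held 5 of the arrays, that is without LOX-PP replicate 1, the changes were 2.49 for IFIH1, -1.46 for IRF7 and -1.31 for IFIT5, and each passed the threshold (adjusted p = 0.0227, 0.0313 and 0.0369, limma). All 3 calls were lost without control replicate 1 (adjusted p = 0.0942, 0.110 and 0.147), without control replicate 2 (0.0905, 0.0831 and 0.146) and without LOX-PP replicate 2 (0.0573, 0.0575 and 0.0819), with the direction kept. They were also lost with no filter on dim probes (0.0676, 0.0861 and 0.118, limma). Without control replicate 3 IRF7 and IFIT5 were lost, and without LOX-PP replicate 3 IFIH1 and IFIT5 were.

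**Figure D2:**
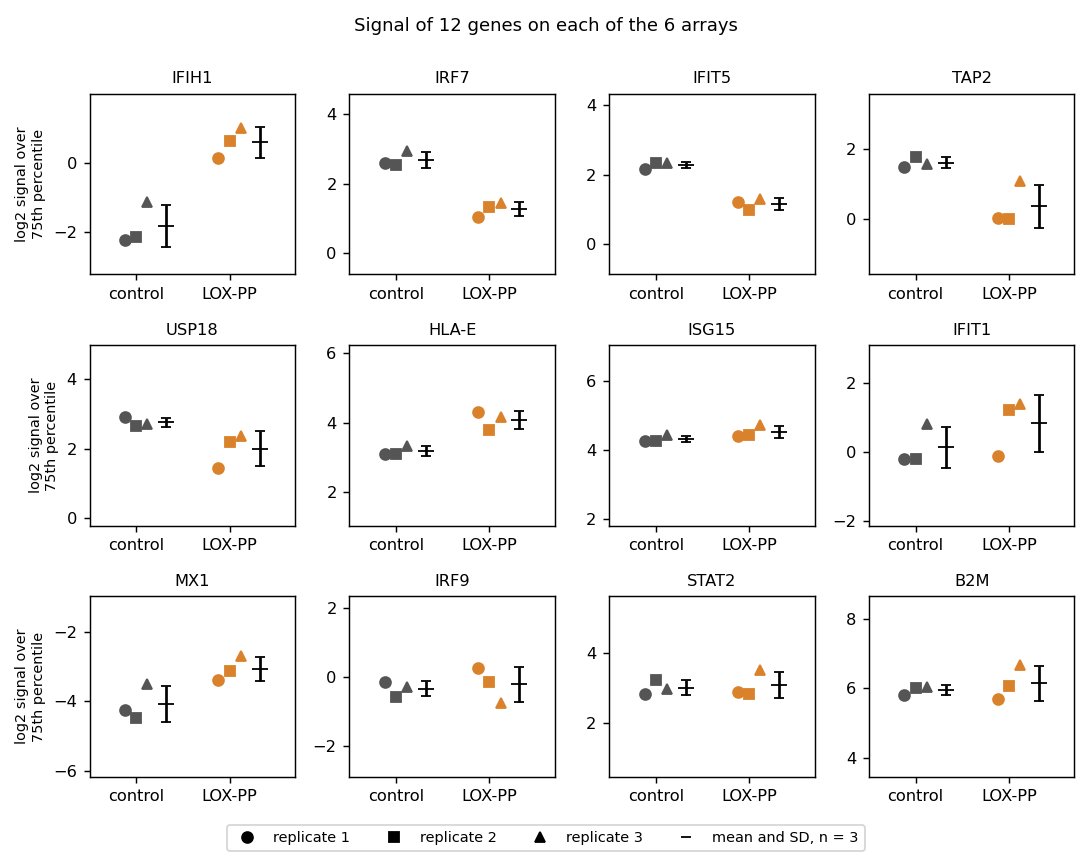
Log2 signal over the array's 75th percentile (y axis, the same span in each panel) of 12 genes in the 3 control and the 3 LOX-PP arrays, with symbols for the replicate and bars for the mean and SD. The groups separate for IFIH1, IRF7, IFIT5, TAP2, USP18, HLA-E and MX1, and overlap for ISG15, IFIT1, IRF9, STAT2 and B2M.

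Among the factors beside IRF7, IRF1, which is induced by interferon gamma and activates class I genes, read -3.31, -3.01 and -2.68 in the control and -2.44, -2.03 and -2.03 in the LOX-PP replicates. The groups did not overlap, and the change of 0.71 ± 0.26 (SE, n = 3 per group) missed the threshold (limma, adjusted p = 0.119). IRF9 and STAT2, partners in the complex that binds the response element, changed by -0.001 and -0.05, with 95% intervals from -0.72 to 0.72 and from -0.69 to 0.58. The intervals are wide enough to hold a change of 0.5 in either direction for both. The receptor chains IFNAR1 and IFNGR1, which bind type I and type II interferon, changed by 0.05 and 0.20, with adjusted p = 0.779 and 0.519 (limma).

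ISG15, a ubiquitin-like protein coupled to other proteins during the response, read 4.27, 4.25 and 4.42 in the control and 4.40, 4.43 and 4.72 in the LOX-PP replicates. Its change was 0.08, with a 95% interval from -0.41 to 0.57. USP18, the protease that removes ISG15 and also restrains receptor signalling, read 2.90, 2.66 and 2.71 in the control and 1.43, 2.20 and 2.37 in the LOX-PP replicates. Its groups did not overlap, LOX-PP replicate 1 was the lowest, and the change of -0.89 missed the threshold (limma, adjusted p = 0.204).

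The IFIT genes encode proteins that bind foreign RNA, and the OAS genes encode enzymes that make oligoadenylates, which lead to the breakdown of RNA. Of these 8 genes, IFIT5 was called and the other 7 ranged from -0.37 (OAS1) to 0.57 (IFIT1). IFIT1 read -0.21, -0.19 and 0.80 in the control and -0.11, 1.22 and 1.38 in the LOX-PP replicates, so that the spread within each group was as wide as the difference. IFIT3 read -0.55, -0.45 and -0.45 in the control and -0.28, -0.01 and -0.27 in the LOX-PP replicates. These do not overlap, but the change of 0.17 was small (adjusted p = 0.451, limma) and turned to -0.01 when no filter on dim probes was applied. OAS1, OAS2, OAS3 and OASL changed by -0.37, 0.12, -0.03 and -0.26. OASL was well above background on 3 control arrays and 1 LOX-PP array. A further probe of OAS3 changed by 0.69 and one of OAS2 by 0.61, neither past the threshold (adjusted p = 0.221 and 0.378, limma), and the dimmer IFIT2 probe by 0.40 compared with 0.04 for the brighter.

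IFIT2, IFIT3, IFIT1 and IFIT5 follow in this order on chromosome 10, with at most 1 other protein-coding gene between neighbours, and their changes were 0.04, 0.17, 0.57 and -1.25, so that the called gene is at the end of a run whose other genes were not called. The OAS genes (OAS1, OAS3, OAS2 on chromosome 12) and the IFITM genes (IFITM2, IFITM1, IFITM3 on chromosome 11) form runs with changes between -0.37 and 0.16, none of them called. On chromosome 6, TAP2, PSMB8, TAP1 and PSMB9 follow each other, with changes of -1.38, -0.86, 0.25 and 0.71 and no call. The difference between neighbours was not tested.

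**Figure D3:**
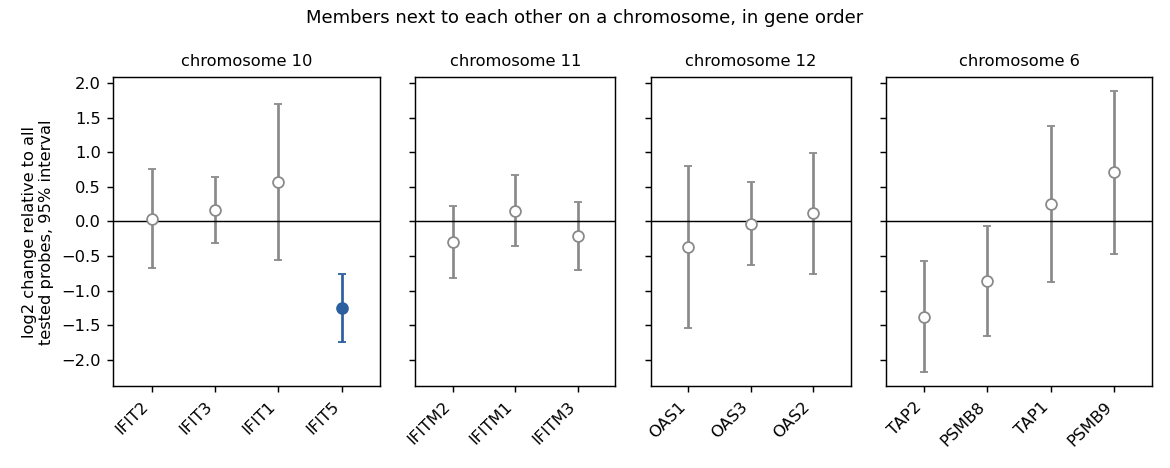
Log2 change with 95% interval (y axis) for runs of neighbouring genes in chromosomal order (x axis, not to scale of distance), with a filled point for an adjusted p under 0.05. IFIT5 at -1.25 departs from the other IFIT genes, and the chromosome 6 run goes from -1.38 for TAP2 to 0.71 for PSMB9.

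Genes that act on membranes and virus traffic gave no call among 7. MX1, a GTPase that traps viral nucleocapsids, read -4.26, -4.47 and -3.51 in the control and -3.40, -3.11 and -2.70 in the LOX-PP replicates, a change of 0.88 ± 0.33 (SE, n = 3 per group; adjusted p = 0.140, limma). The groups were separate, but LOX-PP replicate 1 lay close to control replicate 3. With normexp background correction the change of MX1 was 0.53. IFITM1, of the family that hinders fusion of virus with the cell, read 3.74, 3.36 and 3.73 in the control and 3.75, 3.95 and 3.99 in the LOX-PP replicates. Its groups nearly met, and the change of 0.16 turned to -0.02 with no filter on dim probes. A further IFITM1 probe changed by 0.27. RSAD2 (viperin, which makes a chain-ending nucleotide) read -2.74, -1.96 and -3.30 in the control and -2.46, -4.44 and -3.93 in the LOX-PP replicates. LOX-PP replicate 1 lay among the controls, and the change of -1.07 had a 95% interval from -2.42 to 0.28. RSAD2 was well above background on 3 control and 2 LOX-PP arrays, and its change was -0.63 with normexp background correction. IFITM2, IFITM3, MX2 and BST2 (tetherin) changed by -0.30, -0.21, 0.05 and 0.46, with adjusted p of at least 0.526 (limma). MX2 was well above background on 2 control and 2 LOX-PP arrays. The IFITM genes are close in sequence, and so are the HLA genes, so their probes may share signal, which the files do not settle.

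A further 4 genes named for their induction by interferon were measured, IFI6, IFI35, IFI44 and IFI44L, and gave no call. Their changes were -0.40, 0.19, -0.20 and 0.31, with adjusted p between 0.460 and 0.890 (limma). XAF1, a pro-apoptotic interferon target, was well above background on 1 control and 1 LOX-PP array, and no change is given.

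Class I presentation loads peptides from the proteasome onto HLA heavy chains in the endoplasmic reticulum. None of its 9 genes passed the threshold with limma, where 3 had an unadjusted p under 0.05, and their changes ranged from -1.38 to 0.78. Of the 9, 7 lay above the median of all probes, where the median of all tested genes was -0.09. The count was 6 with quantile normalization, without control replicate 1 and without control replicate 2. It was 4 with normexp background correction, 4 with no filter on dim probes and 3 without LOX-PP replicate 3. HLA-B, HLA-C, B2M and TAP1 gave the changes of sign, and HLA-E, HLA-F and PSMB9 stayed above and TAP2 and PSMB8 below in each of these settings. HLA-E, whose product is read by natural killer cell receptors, read 3.10, 3.10 and 3.33 in the control and 4.29, 3.80 and 4.15 in the LOX-PP replicates. The groups were well apart, and the change was 0.78 ± 0.23 (SE, n = 3 per group; adjusted p = 0.0716, limma). HLA-E passed the threshold with quantile normalization (change 1.00, adjusted p = 0.0413, limma) and with cyclic loess normalization (0.94, adjusted p = 0.0448). It also passed among the probes above background on all 6 arrays (0.83, adjusted p = 0.0476). In the other 14 alternatives HLA-E did not pass, with adjusted p = 0.305 and 0.272 without control replicates 1 and 2 (limma). HLA-F read 3.62, 3.55 and 4.07 in the control and 4.34, 4.12 and 4.81 in the LOX-PP replicates. Its groups were separated by the small gap between control replicate 3 and LOX-PP replicate 2, and its change was 0.55 (adjusted p = 0.218, limma).

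The classical heavy chains HLA-B and HLA-C, which present peptides to T cells, changed by 0.08 and 0.04, and a further HLA-B probe by 0.39. B2M, the light chain of all class I molecules, read 5.80, 6.02 and 6.05 in the control and 5.69, 6.07 and 6.68 in the LOX-PP replicates. Its change was 0.06 (95% interval -0.64 to 0.77), with a wider spread on the LOX-PP arrays.

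TAP1 and TAP2 are the subunits of the peptide transporter. TAP2 read 1.49, 1.79 and 1.56 in the control and 0.03, -0.02 and 1.08 in the LOX-PP replicates. LOX-PP replicate 3 lay closer to the controls than the other LOX-PP replicates did, and the change was -1.38 ± 0.34 (SE, n = 3 per group; adjusted p = 0.0869, limma). Without that array the change was -1.74 and passed the threshold (adjusted p = 0.0305, limma). In the other 16 alternatives TAP2 did not pass, with adjusted p = 0.262 and 0.301 without control replicates 1 and 2 (limma). A dimmer TAP2 probe of another transcript accession changed by -0.43 (adjusted p = 0.549, limma). With the TAP2 probes averaged the change was -0.91 (adjusted p = 0.124, limma). TAP1 read 0.81, 0.65 and 2.05 in the control and 0.95, 1.47 and 2.21 in the LOX-PP replicates and changed by 0.25. PSMB8 and PSMB9, catalytic subunits of the immunoproteasome, were not called. PSMB8 read -0.84, -0.85 and -0.30 in the control and -1.69, -1.74 and -0.76 in the LOX-PP replicates (change -0.86, adjusted p = 0.266, limma). PSMB9 read -1.60, -1.37 and -0.82 in the control and -1.16, -0.79 and 0.67 in the LOX-PP replicates (change 0.71, adjusted p = 0.380, limma). In both genes replicate 3 was the highest of its group.

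That last feature was common among these genes. After the values were seen, the array with the highest value in each group was counted. Replicate 3 was the highest control array for 25 of the 35 genes and the highest LOX-PP array for 25, and it was the highest in both groups for 18 (51.4%), compared with 19.9% of all 16593 tested genes. For the 9 class I genes the number was 7. The median of the 35 genes relative to all tested probes was 0.10 on control replicate 3 and 0.30 on LOX-PP replicate 3, against values from -0.15 to -0.05 on the other 4 arrays. The spread between arrays of 1 group was thus shared by many of the genes. A control array and a LOX-PP array with the same number are not known to come from the same day.

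Of 140 further genes of the interferon and antigen presentation pathways, 136 had a probe and 111 were tested. Of the 111, 7 were higher and 6 lower (11.7%), where 7.05% of all genes were called. HERC5, the ligase that couples ISG15 to its substrates, read -6.06, -6.15 and -5.76 in the control and -2.57, -1.16 and -1.34 in the LOX-PP replicates, and was called higher (adjusted p = 0.00271, limma). Of the control arrays, 1 measured it above background. GBP2, an interferon gamma-induced GTPase, read -5.20, -4.53 and -3.96 in the control and -0.76, -0.67 and -0.59 in the LOX-PP replicates (higher, adjusted p = 0.00205, limma), with 2 control arrays above background. CGAS, the cytosolic DNA sensor, read -0.83, -0.48 and -0.04 in the control and -5.20, -3.42 and -4.70 in the LOX-PP replicates. It fell (adjusted p = 0.00663, limma), and 1 LOX-PP array measured it above background. The sizes for these 3 genes rest in part on signal near background. They were 4.17 for HERC5, 3.76 for GBP2 and -4.11 for CGAS as reported and 2.62, 2.87 and -3.04 with normexp background correction, with the calls kept.

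Class II genes present peptides from outside the cell and are mostly active in immune cells. HLA-DMB, a subunit of the chaperone that loads class II molecules, read -3.65, -3.50 and -3.61 in the control and -0.87, 0.55 and -0.84 in the LOX-PP replicates (change 3.07, adjusted p = 0.00790, limma). HLA-DPB1, a class II beta chain, moved the other way, with -0.25, -0.23 and -0.48 in the control and -3.62, -3.07 and -3.54 in the LOX-PP replicates (change -3.22, adjusted p = 0.00153, limma). Both were well above background on every array. The leukocyte marker ITGAM was higher as well, and its part in these changes was not tested. The other 7 tested class II genes were not called and lay between -0.18 and 0.48.

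The remaining genes called higher were SAMD9L (2.50, or 1.66 with normexp, with 1 control array above background), IFNLR1, the type III interferon receptor chain (2.38), the nuclear body protein SP110 (1.33) and STAT3 (1.15). The remaining genes called lower were the helicase DDX60L (-1.68), the peptide-trimming aminopeptidase ERAP1 (-1.35), and the ADP-ribosyltransferase family members PARP10 (-1.34) and PARP9 (-1.26). By role, 2 of 16 receptor and signalling genes, 1 of 15 sensing genes, 7 of 51 further interferon-stimulated genes, 1 of 17 class I processing genes and 2 of 9 class II genes were called. HERC5, GBP2 and HLA-DPB1 kept their calls in every alternative that tested them. The calls of IFNLR1, STAT3, SP110, DDX60L, ERAP1, PARP9, PARP10 and HLA-DMB were lost without control replicate 1, and those but HLA-DMB also without control replicate 2. Without control replicate 1 or 2 or LOX-PP replicate 2, 5, 6 and 7 of the 13 genes were called. With each gene's probes averaged, IFNLR1 (1.10, adjusted p = 0.234, limma), PARP10 (-0.95, adjusted p = 0.433) and PARP9 (-1.15, adjusted p = 0.0608) were not called. Of 21 interferon ligands, 17 had a probe and 3 (IFNA4, IFNL1 and IFNL2) were bright enough to test, with changes from 0.30 to 0.39 and no call. IFNB1 was not well above background on any array, and IFNG on 1 control array.

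**Figure D4:**
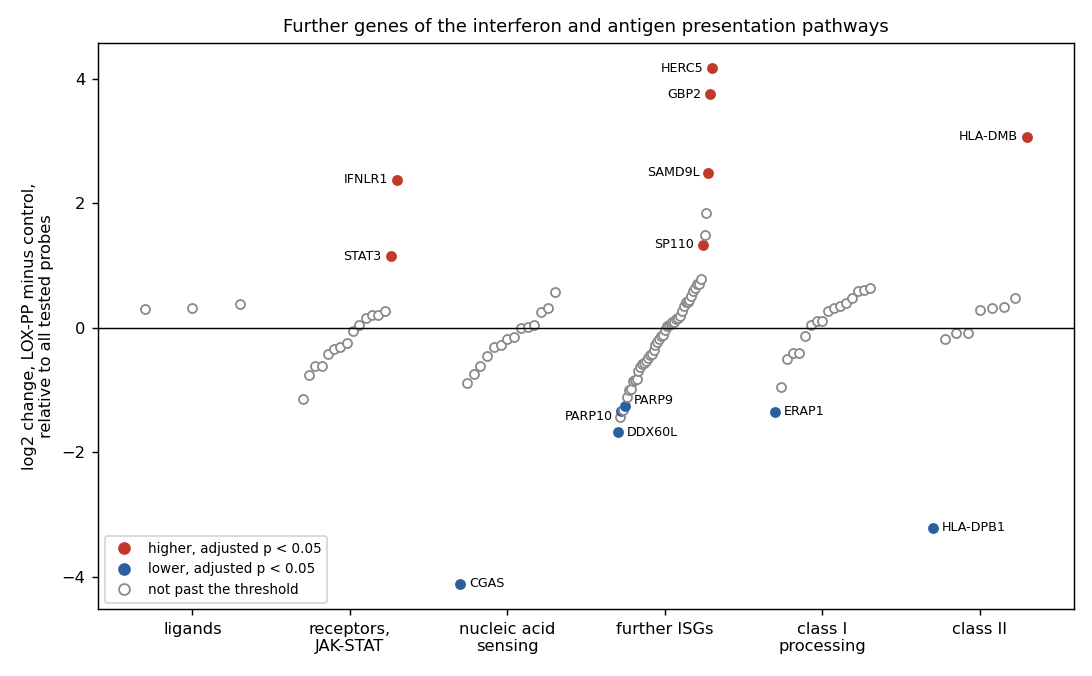
Log2 change (y axis) of the 111 tested further genes of the pathways, ordered by change within each role (x axis), with filled points for an adjusted p under 0.05. Called genes lie on both sides of 0, and most genes lie within 1 of 0. The points of HERC5, SAMD9L, GBP2 and CGAS include arrays not above background and lie nearer to 0 with normexp background correction.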

How the data were processed

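For each array the deposited spot intensity is the output of Agilent Feature Extraction (version 10.7, per the submitters' processing notes), from which the software had already subtracted background. The authors also deposited processed log2 values. Those deposited log2 values equal the values used here centred on each probe, within 0.00586 for all 50599 probes. Here control and outlier spots were removed, spots of the same probe were averaged as log2 intensity, and every array was scaled to its 75th percentile. A probe entered the test when at least 3 of the 6 arrays measured it well above background. The test was limma (3.58.1, R 4.3.3) on 3 arrays per group, without a block, two-sided, at a Benjamini-Hochberg adjusted p under 0.05 over all tested probes. The number of arrays limits the precision. Each p-value sets the difference between groups against the spread between cultures of the same line. It does not cover spread between clones. RefSeq accessions gave 28174 of the 50599 probes 1 gene name. The table's assembly is later than that of the array design, so chromosomes, gene order and promoter windows are those of RefSeq (GRCh38.p14).

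The genes of the group, the pathway list and the markers were chosen with earlier results of these data known. Named are the genes with a call, those whose groups do not overlap, others by range, pathway genes with a call, and IFNAR1, IFNGR1 and LOX. Some results of the pathway list are not reported here. Alternatives were quantile and cyclic loess normalization, the median of detected probes, the authors' values, normexp (offset 50) on median spot signal, other filters, the slide or replicate as a block, the methods' t-test, each gene's probes averaged, and leaving out each array. Cyclic loess was chosen after seeing the data. The steps were tested on simulated data.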

Additional observations from a re-analysis of the deposited data

How the results depend on the processing

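The number of the 35 genes past the threshold (3 as reported) was 0 with no filter on dim probes, 1 with a replicate block (IFIH1) and 1 in the methods' t-test (IFIT5), and 0 to 3 when an array was left out. Among them the genes higher (1) were 2 with quantile normalization, with cyclic loess normalization (chosen after seeing the data) and among probes above background on all 6 arrays, and 0 with no filter and in the methods' t-test. The genes lower (2) were 0 with a replicate block, 0 with no filter and 1 in the methods' t-test. Leaving out an array gave 0 to 1 higher and 0 to 2 lower. Counts of 0 came from limma, or for genes higher also from the methods' t-test, and the 3 genes kept their direction throughout. Over all probes, 1844 calls became 850 with a replicate block, 516 with no filter, 566 in the methods' t-test and 407 to 2054 without an array. At an unadjusted p under 0.05 the counts were 6325, 6600 and 6429 for those 3 settings. The 13 pathway calls became 7, 6 and 6 with the same 3 settings and 5 to 15 without an array. The changes of IFIT3 and IFITM1 turned to -0.00925 and -0.019 with no filter. The cause was not tested. The median change of the group stayed between -0.12 and 0.16, within the 0.19 SD between arrays, in all settings but each gene's probes averaged. For that setting the median and the counts of calls were not computed. Replicate numbers do not pair the arrays by any label, and the correlations of deviations from the group means were 0.26, -0.38 and 0.22, with 2 of 6 arrays correlating best with their own number. The slide as a block fits the array alone on its slide exactly, so it equals leaving out LOX-PP replicate 1. Quantile normalization moved the median of all probes to -0.03 and the calls to 908 higher of 1889, compared with 1077 of 1844. As reported, no gene of the group with a change under 1 in either direction passed the threshold with 3 arrays per group.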
